A study of Mus musculus with 33 samples.

Results

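The clustered histone genes were followed across 33 total RNA libraries from mouse livers and liver tumours, to measure how they changed when MYC and stabilised β-catenin were switched on in hepatocytes. They were taken as every gene whose symbol begins with Hist1h, Hist2h, Hist3h or Hist4h, which gave 64 of the 21671 genes measured. The rule used names and no measured value. By these names 52 belong to the Hist1 cluster on chromosome 13, 8 to Hist2 on chromosome 3, 3 to Hist3 on chromosome 11 and 1 to Hist4 on chromosome 6. The set is wider than the replication-dependent class: it holds the pseudogene Hist3h2bb-ps, the testis genes Hist1h1t, Hist1h2aa and Hist1h2ba, and the genes Hist1h1c, Hist1h2bc and Hist2h2be, which can also make polyadenylated mRNA.

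All mice were C57BL/6. The short-term livers came from 6- to 8-week-old mice 4 days after intravenous AAV8-TBG-CRE, a virus that makes Cre recombinase from a hepatocyte promoter, and this treatment was shared by all 4 genotypes with 5 livers each. The genotypes were wild type (WT), beta-cat Ex3 (here Ex3, in which Cre removes exon 3 of the β-catenin gene and leaves a protein that escapes degradation), R26-lslMYC (MYC, in which Cre lets the Rosa26 locus express MYC) and R26-lslMYC/beta-cat Ex3 (MYC+Ex3). The tumour samples were liver noduli of Alb-CreERT2/R26-lslMYC mice (3 MYC tumours) and Alb-CreERT2/R26-lslMYC/b-catEx3 mice (3 MYC+Ex3 tumours). Their treatment is given as not applicable and their age is not given in the sources used here. They were set against 7 wild-type livers taken 4 days after intraperitoneal 4-OHT, a tamoxifen metabolite that activates CreERT2, and the labels do not say whether these mice carried Alb-CreERT2. The tumours differ from these livers in genotype, time and tissue state at once, and these cannot be told apart. The sample names split the 4-OHT livers into an S14 set of 4 and an S15 set of 3.

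Replication-dependent histone genes supply the proteins that wrap new DNA. H2A, H2B, H3 and H4 form the nucleosome core and H1 binds the linker between nucleosomes. Their mRNAs are made in S phase at the histone locus body, where NPAT switches the genes on, and end in a short stem-loop bound by SLBP in place of a poly(A) tail. Total RNA libraries keep such transcripts, which libraries selected for poly(A) largely lose. Adult hepatocytes are mostly out of the cell cycle.

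The stem-loop is the feature the family shares. In GENCODE M21 transcripts (GRCm38), a stem-loop sequence was found in 42 of the 64 genes, against 68 of 21901 protein-coding genes (0.310%). It took 8 forms over 16 bases, and the most frequent was in 22 genes, none of them H4. The 8 sequences below are examples from single genes, and some forms are repeated while others are not shown. They give the form found in an H1 gene, an H2A gene, an H2B and an H3 gene. Next come the form of Hist1h3g that no other member has, and 3 forms found in H4 genes. Other H2B and H3 genes, such as Hist1h2be and Hist1h3b, carry the same form as Hist1h1c. Capitals mark the stem-loop.
Hist1h1c: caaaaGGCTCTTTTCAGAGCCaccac
Hist1h2ab: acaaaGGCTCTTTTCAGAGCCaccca
Hist1h2bb: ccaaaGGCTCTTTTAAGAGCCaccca
Hist1h3c: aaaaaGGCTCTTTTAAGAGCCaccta
Hist1h3g: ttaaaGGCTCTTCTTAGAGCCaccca
Hist1h4b: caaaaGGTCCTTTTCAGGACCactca
Hist1h4d: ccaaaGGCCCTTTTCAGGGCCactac
Hist1h4i: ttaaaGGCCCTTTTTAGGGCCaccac
Of the 22 genes with no match, 16 have under 30 annotated bases after the stop codon, so the window was not there to search. Hist1h2bc and Hist2h2be have 742 and 2192 bases there, and these letters were not found in them.

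Promoters were taken from RefSeq (GRCm38.p6) and matched by symbol for 58 of the 64 genes. Windows of 250 bases before to 50 after the annotated start were searched on both strands for the letters CCAAT of the CCAAT box, the letters TATAAA of the TATA box and the octamer ATGCAAAT. The CCAAT box was found in all 46 promoters of H1, H2A, H2B and H3 genes and in 3 of 12 H4 promoters, against 37.4% of all RefSeq promoters. The TATA box was found in 58.6% of the histone promoters and 13.6% of all promoters. The octamer was found in 7 H2A and 6 H2B promoters and in none of the H1, H3 or H4 windows, against 1.74% of all promoters. These counts take the first listed promoter of each gene, and the second promoter of Hist1h2be, an H2B gene, also holds the octamer. H2A and H2B genes often lie head to head, and 8 pairs of their windows overlap, so they share some matches. The 200 bases before the start are shown for the pair of genes with the largest rise in MYC livers (Hist1h1b and Hist1h3g), an H2A gene with the octamer (Hist1h2ab) and 2 abundant genes that did not pass the test there (Hist1h1c and Hist1h4d). Capitals mark the motifs.
Hist1h1b, chr13:21780626-21780825, - strand: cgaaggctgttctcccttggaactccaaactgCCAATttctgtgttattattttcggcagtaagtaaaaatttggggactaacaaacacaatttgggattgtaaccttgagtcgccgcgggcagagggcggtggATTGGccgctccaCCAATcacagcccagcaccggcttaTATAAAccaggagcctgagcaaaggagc
Hist1h3g, chr13:23535218-23535417, + strand: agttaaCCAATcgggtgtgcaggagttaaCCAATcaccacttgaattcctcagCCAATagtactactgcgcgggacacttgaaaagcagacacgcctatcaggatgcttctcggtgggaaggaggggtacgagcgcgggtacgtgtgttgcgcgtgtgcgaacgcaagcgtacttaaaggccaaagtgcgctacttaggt
Hist1h2ab, chr13:23750888-23751087, + strand: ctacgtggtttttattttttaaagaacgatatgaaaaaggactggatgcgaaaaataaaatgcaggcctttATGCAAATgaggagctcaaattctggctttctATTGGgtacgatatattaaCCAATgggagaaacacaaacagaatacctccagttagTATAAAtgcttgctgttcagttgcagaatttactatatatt
Hist1h1c, chr13:23738607-23738806, + strand: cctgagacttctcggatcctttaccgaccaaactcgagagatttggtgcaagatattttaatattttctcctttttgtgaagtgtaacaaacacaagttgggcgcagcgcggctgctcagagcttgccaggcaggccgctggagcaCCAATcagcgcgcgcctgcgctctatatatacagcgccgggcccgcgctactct
Hist1h4d, chr13:23581368-23581567, + strand: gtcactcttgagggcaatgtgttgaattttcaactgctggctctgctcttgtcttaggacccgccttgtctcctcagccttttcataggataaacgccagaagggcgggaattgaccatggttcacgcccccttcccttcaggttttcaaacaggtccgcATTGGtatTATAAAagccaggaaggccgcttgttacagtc
A match in these letters describes the sequence only, and binding was not measured.

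Levels are RPKM, reads per kilobase of gene scaled to library size. Whole reads could be recovered from the deposited values, because every value of a gene is a whole multiple of what 1 read is worth. The short-term libraries held 3.75 to 7.31 M reads in genes and the tumour and 4-OHT libraries 6.65 to 9.82 M. In the tumour set the RPKM were scaled to a larger total, of which reads in genes were 22.2% to 29.6%, so RPKM levels of the 2 sets cannot be set against each other and every comparison stays within a set. Of the 64 genes, 63 had reads and Hist1h2bq is listed at 0 in every library. A gene was tested if 3 or more libraries of its set had an RPKM of 1 or above, which left 58 of the 64 in the short-term set and 57 in the tumour set. The fits also covered all other genes that passed (13688 and 11854 genes). The mouse Myc gene does not check the MYC allele, which is a transgene, and the median Ctnnb1 level was 131 RPKM in WT and 123 RPKM in Ex3 livers. Labels do not give sex, and by Xist and Ddx3y reads each short-term group held both sexes, the 4-OHT livers were 3 female and 4 male, the MYC tumours 3 male and the MYC+Ex3 tumours 1 female and 2 male. Reads of the skin keratins Krt5, Krt14 and Krt17 summed to 3.95 to 23.8 RPKM in 10 of the 20 short-term libraries (3 WT, 3 Ex3, 1 MYC and 3 MYC+Ex3) and to at most 0.398 RPKM in the others, a split that no label explains.

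Reads per base were limited in these files. No gene of 300 bases or more exceeded 1.65 reads per base in a short-term library or 1.81 in a tumour-set library. Alb, the albumin gene, stood at 177 to 313 RPKM over the short-term livers, in the range of the most abundant histone gene, Hist1h4d, at 139 to 251 RPKM. Of the histone genes, 7 averaged 0.5 reads per base or more in the short-term livers. What set this limit is not given in the sources used here and was not tested. In addition, 49 of the 64 genes share over 50% of the 50-base stretches of their coding sequence with other genes. Reads may therefore be split or lost between copies. Hist1h1a, Hist1h1b, Hist1h1t, Hist2h2be and the H4 gene Hist4h4 share none. Only the coding sequence, taken as the longest reading frame, was searched, here and below. The length behind the RPKM can be longer, as in Hist2h2be with 2618 bases against 381 coding bases.

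Most histone genes were higher in livers 4 days after MYC was switched on. The summed RPKM of all 64 genes was 1191, 1405, 1441, 1527 and 1560 in the WT livers and 2418, 2710, 3079, 3393 and 5460 in the MYC livers, so that every MYC liver lay above every WT liver. Against WT, 46 of 58 tested histone genes passed as higher in MYC livers and 0 as lower (limma, adjusted p under 0.05), beside 16.9% of all genes called higher and 5.36% lower. The median change was 1.61 in log2(RPKM + 1), beside 0.07 over all genes. Without the keratin-bearing libraries 40 were higher. For this and later counts on part of the libraries, the share over all genes is given only where it stands beside them. Counts without it are not read as a result about histone genes. The authors' deposited table calls 45 of the 57 histone genes it tests higher and 0 lower, beside 12.5% of all genes higher. Its median log2 fold change over the histone genes is 1.46. In 46 of the 58 genes every MYC library exceeded every WT library, which held for 10.9% of all genes. Rescaling by the median ratio left 45 higher and 0 lower among the histone genes, while over all genes it moved the split from 2313 higher and 734 lower to 1880 and 1302.

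**Figure D1:**
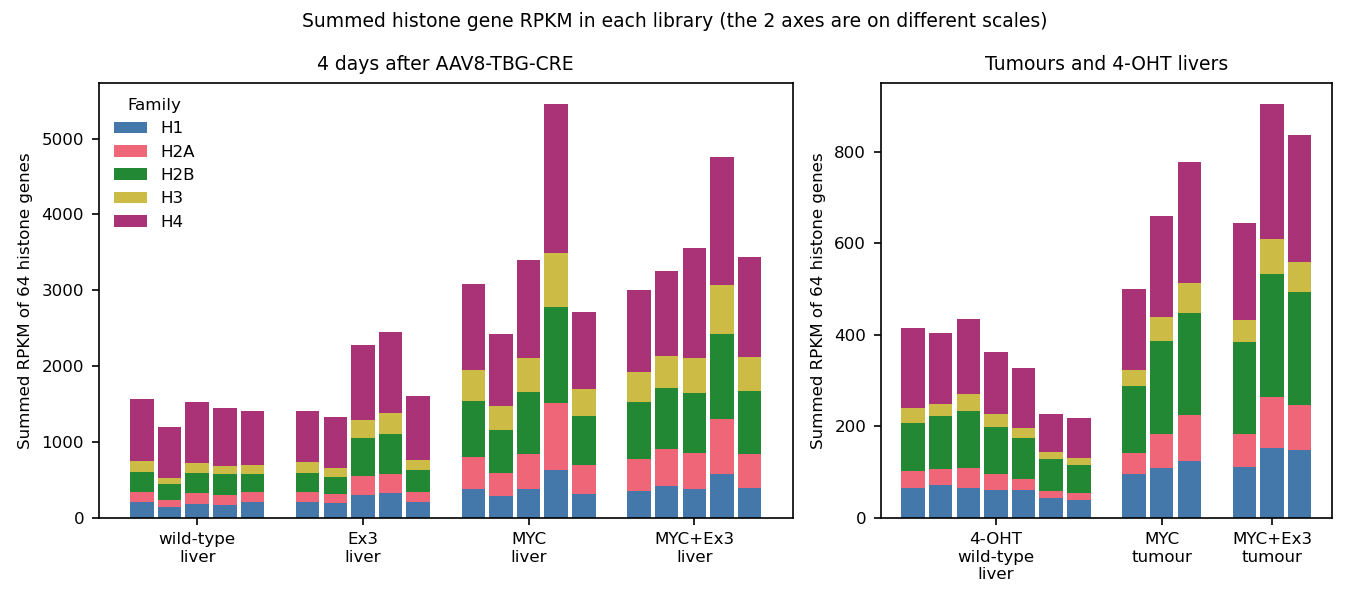
Each bar is 1 library and its height is the summed RPKM of the 64 histone genes, with colours for the families. The left axis (short-term livers) and the right axis (tumours and 4-OHT livers) are on different scales, and the MYC and MYC+Ex3 livers, from 2418 to 5460, all stand above the WT livers, from 1191 to 1560.

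The largest rises were in Hist1h1b, a linker histone gene, and Hist1h3g, which encodes H3. Hist1h1b stood at 3.01, 3.87, 4.91, 7.13 and 8.26 RPKM in the WT livers and at 42.2, 53.6, 60.6, 72.2 and 140.2 RPKM in the MYC livers. The groups were far apart, with a change of 3.48 ± 0.49 (SE, log2(RPKM + 1), n = 5 and 5, limma adjusted p = 3.86e-05). Hist1h3g went from 2.28, 2.64, 2.68, 4.18 and 5.1 RPKM in WT to 35.8, 36.1, 44.0, 44.9 and 83.2 RPKM in MYC livers. Its change was 3.48 ± 0.37 (limma adjusted p = 3.38e-06), and again no library of one group reached the other. Hist1h1e, one of the more abundant linker genes, stood at 43.1, 49.1, 51, 53.9 and 55.6 RPKM in WT and at 53, 56.9, 61.2, 65.9 and 85.4 RPKM in MYC livers. Its groups overlapped, with a difference of 0.33 ± 0.13 (limma adjusted p = 0.0675). Hist1h1a, another linker gene, rose by 2.88 ± 0.39 and Hist1h3c, an H3 gene, by 3.02 ± 0.32.

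Among H2A genes, Hist1h2ak stood at 7.99, 8.71, 11.3, 12.6 and 15.1 RPKM in WT and at 47.4, 59.7, 65.4, 70.7 and 129 RPKM in MYC livers. Its groups were apart, with a change of 2.58 ± 0.30 (limma adjusted p = 6.45e-06). Hist2h2ac, the most abundant H2A gene of those named here, had 49.5, 52.7, 54.4, 72.4 and 73.1 RPKM in WT and 84.6, 89.1, 96.1, 118 and 201 RPKM in MYC livers, a smaller change of 0.89 ± 0.20 (adjusted p = 0.00314). Hist1h2ab, whose stem-loop and promoter are shown above, rose by 2.08 ± 0.28.

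Among H2B genes, Hist2h2bb stood at 33.3, 37.1, 37.3, 38.4 and 44.5 RPKM in WT and at 105, 108, 126, 148 and 206 RPKM in MYC livers. No MYC library came near the WT range, and the change was 1.79 ± 0.22 (limma adjusted p = 1.18e-05). Hist1h2bb rose by 1.63 ± 0.27. Among H3 genes, Hist1h3e was already at 20.7 to 48.8 RPKM in WT livers and rose by 0.93 ± 0.19, while Hist1h3b, at 3.82 to 11.8 RPKM in WT, rose by 2.59 ± 0.34. Over 50% of the 50-base coding stretches of each of these H2A, H2B and H3 genes occur in other genes.

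The families moved to different degrees. All 11 H3 genes tested were higher in MYC livers, with a median change of 2.02 (16.9% of all genes were called higher). H2A had 11 of 13 higher (median 2.25) and H2B 14 of 16 (median 1.92). H1 had 3 of 5 higher and H4 had 7 of 13, with a median of 1.08. H4 genes made up 51.0% to 55.9% of the summed histone RPKM in WT livers and 36.0% to 39.0% in MYC livers. The H3 share was 7.25% to 9.24% in WT livers and at most 13.3% in MYC livers, with a mean of 13.2% there. These shares were not tested, and they include the genes close to the limit on reads per base.

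Of the 12 genes that did not pass, 6 averaged 0.5 reads per base or more, 2 lay between 0.1 and 0.5, and 4 were under 0.1. Hist1h4d, the most abundant, stood at 139.5, 146.0, 162.0, 163.0 and 168.0 RPKM in WT livers and at 158.0, 164.0, 175.0, 198.0 and 251.0 RPKM in MYC livers. The groups overlapped, and the difference was 0.26 ± 0.12 (limma adjusted p = 0.139). Hist1h4c differed by 0.15 ± 0.17 and Hist1h4h by 0.07 ± 0.17. Among the 7 genes at 0.5 reads per base or more, 1 was called higher (Hist2h2bb), with a median of 0.24. Among the 33 genes between 0.1 and 0.5 reads per base, 31 were called higher, with a median of 2.10. Among the 18 under 0.1 reads per base, 14 were called higher, with a median of 1.4, and those not called there (Hist1h4n, Hist2h2aa1, Hist3h2a and Hist3h2ba) averaged 1.7 to 4.91 RPKM in WT livers. Over all genes tested the corresponding shares called higher were 6.26%, 20.4% and 16.1%. The part of the limit on reads per base in this difference was not tested.

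**Figure D2:**
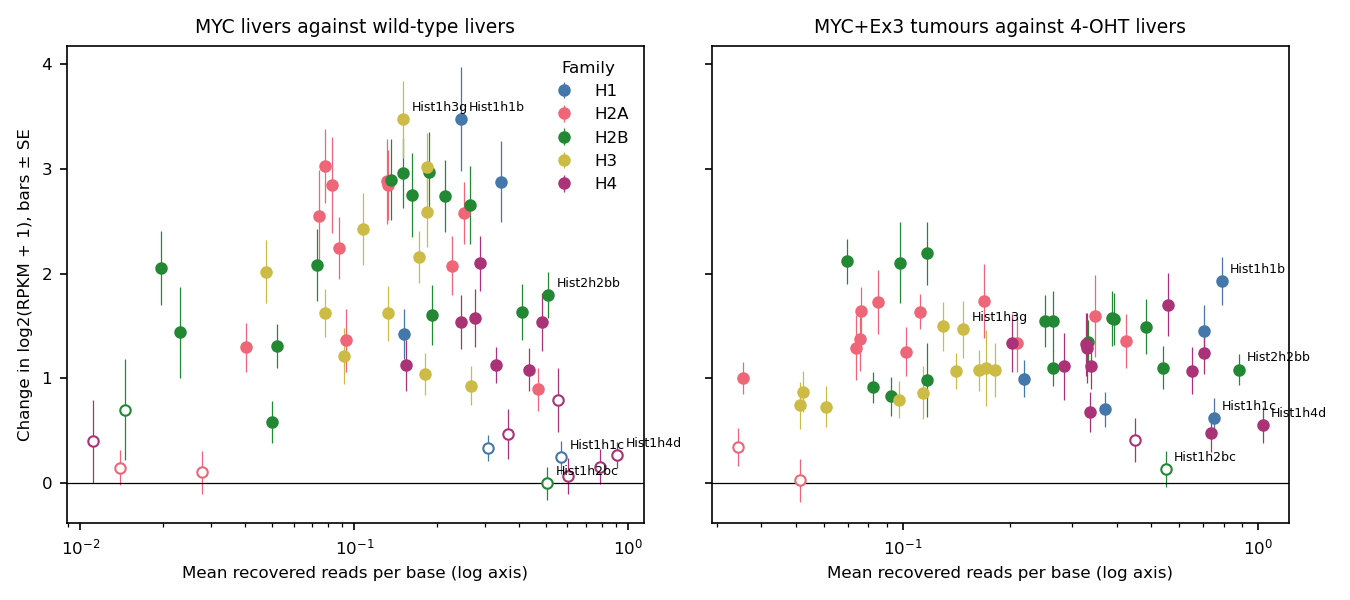
Each point is 1 histone gene, with the change in log2(RPKM + 1) ± SE on the vertical axis and its mean recovered reads per base on a log horizontal axis. Filled points passed the test and open points did not; in the left panel the 7 genes at 0.5 reads per base or more have a median change of 0.24 and the 33 genes between 0.1 and 0.5 have one of 2.10.

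Of the genes that can make polyadenylated mRNA, 1 of 3 was called higher in MYC livers and 2 of 3 in each tumour type. The shares over all genes were 16.9% in MYC livers, 36.2% in MYC tumours and 42.3% in MYC+Ex3 tumours. With 3 genes these counts cannot be told apart from those shares. Hist1h2bc, an H2B gene, stood at 78.3, 88.8, 90.6, 111.0 and 114.0 RPKM in WT and at 70.8, 86.4, 90.7, 118.0 and 120.4 RPKM in MYC livers. The ranges coincided, and the difference was -0.00 ± 0.16 (limma adjusted p = 0.994). Hist1h1c, a linker gene expressed in resting cells, differed by 0.24 ± 0.16 (adjusted p = 0.284). Both average over 0.5 reads per base, at 0.507 and 0.571, and 97.6% of the 50-base coding stretches of Hist1h2bc are shared. Hist2h2be, at 0.0499 reads per base and with no shared coding stretch, rose by 0.58 ± 0.20 (limma adjusted p = 0.0444). For Hist2h2be, 19 of its alternatives gave an adjusted p above the threshold, up to 0.406. The authors' deposited table gives it an adjusted p of 0.0576. In MYC+Ex3 livers it rose by 0.88 ± 0.20 (limma adjusted p = 0.00311). The testis genes stayed under the filter: Hist1h1t reached at most 1.51 RPKM, Hist1h2aa 2.3 RPKM and Hist1h2ba 1.17 RPKM in any short-term library.

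Ex3 alone passed the test in no histone gene. The summed RPKM was 1333, 1409, 1610, 2282 and 2450 in the Ex3 livers, so that 3 livers lay above the highest WT liver (1560), replicates 3 and 4 by the most, and the other 2 overlapped the WT livers. Of the 58 genes 0 were called (limma), beside 0.132% of all genes called higher and 0% lower, and 19 had an unadjusted p under 0.05, as did 744 of all 13688 genes. The authors' deposited table also calls 0 of the 50 histone genes for which it gives an adjusted p, beside 0.656% of all genes higher. The median change was 0.47, beside 0.01 over all genes. In 2 of the 58 genes every Ex3 library exceeded every WT library, beside 1.03% of all genes.

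The 2 high Ex3 livers stood above the other 3 in the summed RPKM of every family. H2A summed to 255 RPKM in each of them and to 120.3 to 132 RPKM in the others, and H4 to 988 and 1073 RPKM beside 679 to 843 RPKM. Hist1h1a stood at 11.9, 12 and 15.4 RPKM in the other Ex3 livers and at 51.6 and 51.5 RPKM in replicates 3 and 4, beside 6.31 to 17.4 RPKM in WT livers. Hist1h3c, the gene with the largest difference (1.19 ± 0.32, limma adjusted p = 0.298), stood at 7.23, 8.51 and 11.3 RPKM in the other Ex3 livers and at 29.1 and 33.2 RPKM in these 2, all above the 4.68 to 6.97 RPKM of the WT livers. Both were female by Xist, and both carried keratin reads, with sums of 9.69 and 4.61 RPKM. Ex3 replicate 5, a male, also carried them (14.7 RPKM) and its histone sum was 1610. Within the libraries without keratin reads the median change was -0.06, within those with them it was 0.92, and 0 genes were called in either set. Sex and these reads were each fitted as a covariate among the alternatives, but their own effect on the histone levels was not tested. The summed RPKM of 32 DNA replication genes was 274.0 and 315.0 in these livers, and 189.6 to 246.0 in the other Ex3 and the WT livers.

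**Figure D3:**
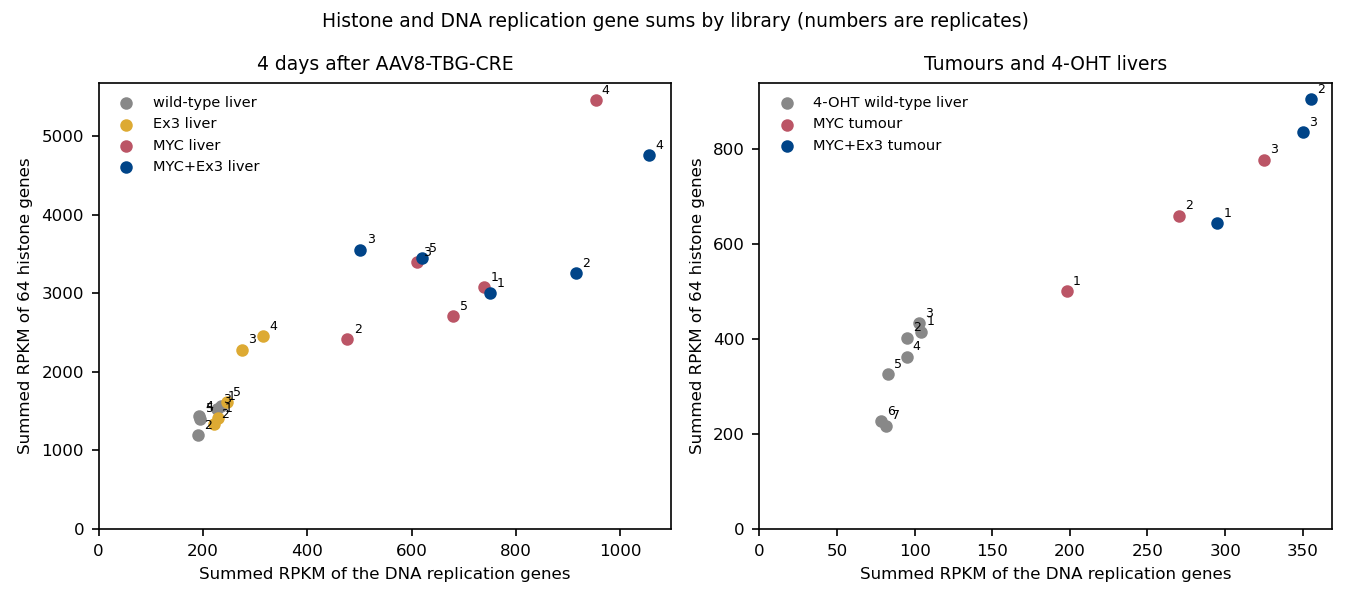
Each point is 1 library, with the summed RPKM of the 32 DNA replication genes on the horizontal axis and of the 64 histone genes on the vertical axis, numbered by replicate. Ex3 replicates 3 and 4, at 2282 and 2450, stand above the WT livers on both axes on the left, and the tumours stand above the 4-OHT livers on both axes on the right.

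Most histone genes were also higher than in WT where MYC and Ex3 were combined. The MYC+Ex3 livers had summed values of 2997, 3254, 3443, 3553 and 4757 RPKM. Here 47 of 58 genes were called higher and 0 lower (all genes 17.9% higher and 6.18% lower), with a median change of 1.73 beside 0.05. The libraries did not overlap in 47 of the 58, beside 13.5% of all genes. Rescaling by the median ratio left 47 higher, while over all genes the split went from 2455 higher and 846 lower to 2049 and 1301. Hist1h1b stood at 43.2, 68.3, 78.1, 98.4 and 147.0 RPKM, a change of 3.73 ± 0.49 from WT, and Hist1h3g rose by 3.63 ± 0.37. Within the libraries without keratin reads 45 genes were higher, and within those with them 52 were. The shares over all genes in these refits are not given here. The comparisons of MYC and of MYC+Ex3 share the WT livers.

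Adding Ex3 to MYC made no call. Between MYC+Ex3 and MYC livers 0 of 58 genes passed (limma, all genes 0.190% higher and 0% lower). None had groups that did not overlap (0.497% of all genes), and 0 had an unadjusted p under 0.05. The deposited table of the authors calls 0 of 57, beside 0.247% of all genes higher. The differences lay between -0.15 and 0.44 with a median of 0.13. Set against the Ex3 livers, MYC+Ex3 livers had 48 of 58 genes called higher and 0 lower (all genes 16.4% higher and 4.70% lower), with a median change of 1.32 beside 0.03. In 46 genes the libraries did not overlap, beside 15.2% of all genes. Rescaling by the median ratio left 47, with the split over all genes going from 2249 higher and 644 lower to 1940 and 956. Using only the keratin-bearing libraries, 33 genes were called, and without those libraries 47 were, again without a share over all genes. The interaction term, the difference between the Ex3 effect with MYC and without it, called 0 of 58 histone genes and 0% of all genes. Its median over the histone genes was -0.32, and 3 had an unadjusted p under 0.05, as did 132 of all genes.

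**Figure D4:**
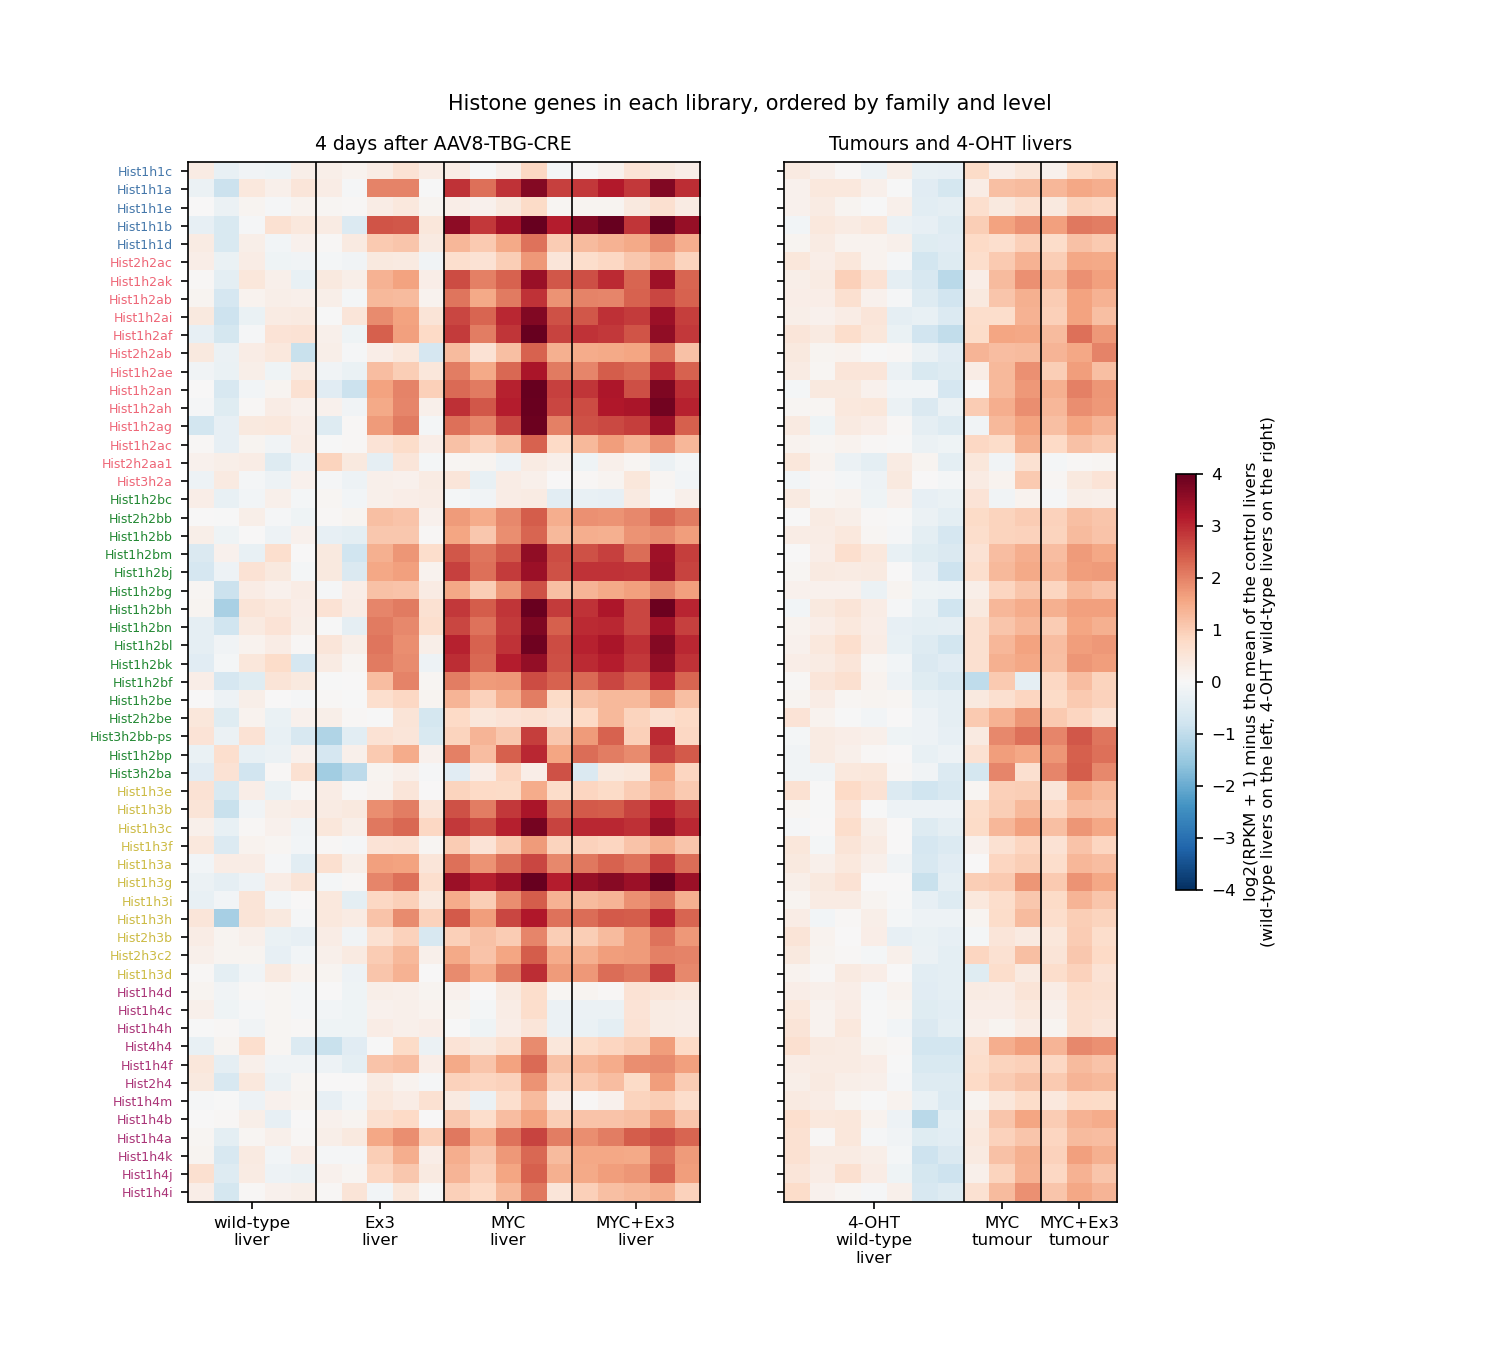
Rows are the 57 histone genes tested in both sets, ordered by family and level, and columns are libraries. Colour is log2(RPKM + 1) minus the mean of the control livers of the same set, with the scale ended at 4; MYC and MYC+Ex3 livers are red in most rows, and rows such as Hist1h2bc, Hist1h4h, Hist2h2aa1 and Hist3h2a are pale.

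Tumours also had higher histone levels than their controls. The size of these changes is not set against that in short-term livers, since RPKM are lower here and adding 1 then shrinks a change more. The summed RPKM was 218 to 434 in the 4-OHT livers (median 363), 500.4, 660.1 and 778 in the MYC tumours, and 645, 836 and 905 in the MYC+Ex3 tumours, with no overlap between livers and tumours. In MYC tumours 44 of 57 genes were higher and 0 lower, beside 36.2% of all genes called higher and 13.7% lower, with a median change of 0.93 beside 0.19. The 57 genes include Hist1h2ac and Hist1h2bp, which passed the filter of 1 RPKM only through the tumours. Without MYC tumour replicate 3, which had the highest sum, 29 were higher, a count given without its share over all genes. In MYC+Ex3 tumours 53 of 57 were higher and 0 lower, beside 42.3% higher and 18.4% lower over all genes, with a median of 1.12 beside 0.23. The tumours lay wholly above the livers in 28 genes for MYC (26.3% of all genes) and in 49 for MYC+Ex3 (38.2%). Rescaling by the median ratio moved the medians of all genes to 0.01 and 0.04 and left 39 and 50 histone genes higher, while the split over all genes went from 4286 higher and 1621 lower to 3195 and 2788 in MYC tumours and from 5011 and 2178 to 3996 and 3242 in MYC+Ex3 tumours.

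The level of the controls depended on their set. The 4 S14 livers had sums of 363 to 434 RPKM, and the 3 S15 livers had 218, 227 and 326 RPKM. The authors' deposited table calls 38 of 58 genes higher in MYC tumours and 51 of 59 in MYC+Ex3 tumours. Over all genes it calls 24.4% and 30.7% higher. Against the S14 livers alone, 33 genes were higher in MYC tumours and 47 in MYC+Ex3 tumours, beside 26.8% and 35.5% of all genes. Against the S15 livers alone, the counts were 50 and 54, beside 28.9% and 37.5% of all genes.

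Hist1h1b was again among the largest rises. It stood at 7.34 to 15.1 RPKM in the 4-OHT livers (median 10.1), at 22.4, 35.5 and 41.4 RPKM in MYC tumours and at 36.4, 47.9 and 50 RPKM in MYC+Ex3 tumours. Every tumour exceeded every liver, with changes of 1.47 ± 0.23 (limma adjusted p = 1.79e-04) and 1.93 ± 0.23 (adjusted p = 9.66e-06). The pseudogene Hist3h2bb-ps, an H2B copy, had the largest change on the log2(RPKM + 1) scale, 1.49 ± 0.30 in MYC and 2.20 ± 0.30 in MYC+Ex3 tumours, from 0.505 to 1.38 RPKM in livers to 6.39, 7.45 and 9.65 RPKM in MYC+Ex3 tumours. Hist2h2bb stood at 13.7 to 23.2 RPKM in livers (median 18.4), at 31.8, 34.5 and 37.4 RPKM in MYC tumours and at 35.4, 40.8 and 42.9 RPKM in MYC+Ex3 tumours, and rose by 0.89 ± 0.15 and 1.08 ± 0.15. Hist1h2bp, another H2B gene, rose by 1.27 ± 0.21 and 2.12 ± 0.21. It stood at 0.190 to 0.839 RPKM in the 4-OHT livers, and Hist1h2ac, an H2A gene, at 0.204 to 0.551 RPKM. Both passed the filter of 1 RPKM only through the tumours, so testing them depended on their being high there. In the authors' deposited table the log2 fold changes of Hist1h2bp, 2.06 and 3.21, exceed those of Hist3h2bb-ps, 1.99 and 2.79. Reads of Hist3h2bb-ps and Hist1h2bp are uncertain, since 30% and 70.4% of the 50-base stretches in their longest reading frame occur in other genes.

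Some genes that did not pass in MYC livers passed in tumours. Hist1h1c stood at 14.8 to 24.3 RPKM in 4-OHT livers (median 19.3), at 23, 25.8 and 32.6 RPKM in MYC tumours and at 21.4, 33.5 and 35.4 RPKM in MYC+Ex3 tumours. The ranges overlapped, and it was called in both (0.49 ± 0.19, adjusted p = 0.0425, and 0.62 ± 0.19, adjusted p = 0.0110), with adjusted p up to 0.223 and 0.0758 under the alternatives. Hist1h4d was called in MYC+Ex3 tumours (0.55 ± 0.17, adjusted p = 0.0131, against 0.39 ± 0.17, adjusted p = 0.0767, in MYC tumours), and the difference between the tumours was not called. Hist1h2bc differed by 0.18 ± 0.17 and 0.13 ± 0.17 and was called in neither. Hist2h2be stood at 0.867 to 2.48 RPKM in 4-OHT livers (median 1.35), below all 6 tumours, and rose by 1.41 ± 0.19 in MYC tumours (adjusted p = 4.55e-05) and by 0.83 ± 0.19 in MYC+Ex3 tumours (adjusted p = 0.00148). Hist1h1e rose by 0.56 ± 0.17 and 0.70 ± 0.17. The authors' deposited table does not bear out all of these calls. Its adjusted p in MYC tumours is 0.121 for Hist1h1c and 0.0622 for Hist1h1e, and in MYC+Ex3 tumours 0.0617 for Hist1h4d. In MYC+Ex3 tumours it gives 0.0149 for Hist1h1c and 0.00442 for Hist1h1e. For Hist2h2be it gives 2.17e-09 in MYC and 2.14e-04 in MYC+Ex3 tumours.

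By family, and beside the 36.2% and 42.3% of all genes called higher in MYC and MYC+Ex3 tumours, H1 had 5 of 5 genes higher in both. Of these, Hist1h1c and Hist1h1e are not called in MYC tumours in the authors' deposited table. H2A had 12 and 11 of 13 higher in MYC and MYC+Ex3 tumours, H2B 13 and 15 of 16, H3 6 and 11 of 11 and H4 8 and 11 of 12. The H2A genes tested include Hist1h2ac and the H2B genes Hist1h2bp, which passed the filter only through the tumours. The H4 share of the summed RPKM was 36.9% to 42.6% in 4-OHT livers, 33.5% to 35.4% in MYC tumours and 32.6% to 33.1% in MYC+Ex3 tumours.

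Between the tumour types 0 of 57 histone genes passed (limma, 4.13% of all genes called, 2.02% higher and 2.10% lower), and 4 had an unadjusted p under 0.05, as did 2089 of all 11854. The groups did not overlap in 3 genes higher in MYC+Ex3 tumours, beside 8.59% of all genes, and in 1 lower. The authors' deposited table calls 0 of 57, beside 1.56% of all genes higher. The median difference was 0.30 towards MYC+Ex3 tumours, beside 0.03 over all genes. Hist2h2be went the other way, at 3.98, 5.3 and 7.16 RPKM in MYC tumours and 2.62, 3.31 and 3.91 RPKM in MYC+Ex3 tumours, groups that did not overlap (-0.58 ± 0.22, limma adjusted p = 0.174). Without MYC tumour replicate 2, 3 genes were called higher in MYC+Ex3 tumours, and without replicate 3, 1 was. Both counts are given without their shares over all genes and are not read as a result about histone genes.

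Genes for the factors that make histone mRNA had smaller median changes. For histone gene transcription and mRNA processing, 7 of 14 tested genes were called higher and 0 lower with MYC (median 0.39; 16.9% of all genes higher), and 11 of 13 in MYC tumours (median 0.58; 36.2% of all genes). Npat, the activator of the locus, stood at 6.25, 7.11, 7.24, 9.04 and 9.24 RPKM in WT livers and at 8.58, 8.81, 9.64, 11.3 and 13.7 RPKM in MYC livers. The groups overlapped, and the change of 0.37 ± 0.13 was called (limma adjusted p = 0.0442), with 19 of its alternatives above the threshold, up to 0.172. In MYC+Ex3 tumours Npat rose by 1.13 ± 0.09 (adjusted p = 3.93e-07). Slbp, the stem-loop binding protein, rose by 0.68 ± 0.16 in MYC livers (adjusted p = 0.00354) and by 0.77 ± 0.15 in MYC+Ex3 tumours. Srrt, an RNA processing factor, rose by 0.74 ± 0.18 in MYC livers, and the endonuclease gene Cpsf3 differed by 0.53 ± 0.20 (adjusted p = 0.0598). Cpsf2, its partner, rose by 0.40 ± 0.14.

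Histone chaperones carry new histones to DNA, and 13 of 19 tested were higher in MYC livers, 16 in MYC tumours and 17 in MYC+Ex3 tumours, beside 16.9%, 36.2% and 42.3% of all genes. Npm1 rose by 0.88 ± 0.15 and Ssrp1, a FACT subunit, by 0.79 ± 0.13 in MYC livers. Rbbp7 rose by 0.75 ± 0.11, while Rbbp4, its close relative, differed by -0.07 ± 0.09. Rbbp7 was the chaperone gene called between the tumour types, higher in MYC+Ex3 tumours by 0.74 ± 0.15 (adjusted p = 0.00989).

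Replacement histone genes, which are used outside S phase, had 5 of 11 higher in MYC livers (median 0.38), 6 of 11 in MYC+Ex3 livers, and 4 and 7 of 9 in MYC and MYC+Ex3 tumours. The shares over all genes were 16.9%, 17.9%, 36.2% and 42.3%, so that the count in MYC tumours is near its background. H2afx, whose protein marks DNA breaks and whose mRNA can carry a stem-loop, rose by 2.36 ± 0.28 in MYC livers. H2afz rose by 0.73 ± 0.15 and H2afj by 0.53 ± 0.12, and H3f3b, which encodes H3.3, differed by 0.29 ± 0.15 (limma adjusted p = 0.172). Of the DNA replication genes, 31 of 32 were higher in MYC livers (median 1.78) and 32 of 32 in both tumour types. Cdc6, Ccne2, Cdc45 and Pole2 reached at most 0.561, 0.606, 0.872 and 0.809 RPKM in the 4-OHT livers. These passed the filter of 1 RPKM only through the tumours, so testing them depended on their being high there. Likewise Cdc6, at most 0.301 RPKM in WT and 0.684 RPKM in Ex3 livers, passed in the short-term set only through livers with MYC. Pcna rose by 1.02 ± 0.16, Mcm7 by 1.87 ± 0.22, Rrm2 by 2.76 ± 0.37 and Tk1 by 0.97 ± 0.25 in MYC livers.

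In bulk tissue, more cells in S phase and more histone RNA per cell cannot be told apart, nor can dividing cells of other types. Among 10 hepatocyte genes, MYC livers had 0 called higher and 2 lower, and their summed RPKM was 1654 to 2250 beside 1983 to 2319 in WT. Erythroid genes (0 of 4 called) summed to 58.5 to 130.3 RPKM in MYC and 43.2 to 192.0 RPKM in WT livers, and lymphocyte genes (0 of 8) to 18.4 to 48.6 and 11.2 to 40.0 RPKM. For macrophages 1 of 9 was higher and for endothelial cells 2 of 9 were lower. For stellate cells and fibroblasts 2 of 9 were higher and 1 lower, and for cholangiocytes 0 of 6 and keratinocytes 0 of 3 were called. Over all genes 16.9% were called higher and 5.36% lower in MYC livers. In lists this short, counts of 1 or 2 genes are not read as a shift of a cell type. In MYC+Ex3 tumours 6 of 7 erythroid genes were higher, with sums of 76.5 to 96.3 RPKM beside 19.2 to 39.0 RPKM in 4-OHT livers and 15.8 to 79.0 RPKM in MYC tumours. Macrophage genes were lower in both tumour types (8 and 7 of 9), as were 6 of 8 endothelial genes. In MYC tumours 4 stellate and fibroblast genes were higher and 3 lower. Over all genes 36.2% were called higher and 13.7% lower in MYC tumours, and 42.3% and 18.4% in MYC+Ex3 tumours. No gene of these lists was at 0 throughout a short-term group, and the part of these cells in the histone levels was not tested.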

How the data were processed

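RPKM values, with log2 fold changes and adjusted p-values of the authors' own comparisons, were deposited by the authors. Per the submitters' processing notes, TopHat2 2.0.8, SAMtools, featureCounts 1.4.5-p1, DESeq2 and the build mm9 were named, without roles. Strand setting, annotation and treatment of duplicates are not given in the sources used here. The library kit keeps strand and total RNA, per the labels' protocols. Reads, library totals and gene lengths were recovered from the steps of the RPKM values, which were whole reads for 100.0% of values within 0.001 of a read. Lengths equal the coding length in 30 of 63 genes.

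limma 3.58.1 in R 4.3.3 was fitted to log2(RPKM + 1), with Benjamini-Hochberg adjustment over all genes tested, on 20 short-term and on 13 tumour and 4-OHT libraries. It was tested on simulated data. A change on this scale is smaller than the true one for low genes. The labels do not say that replicates are separate animals, so p-values measure the spread between these samples. The members and lists were chosen with earlier results of these data known. Genes named in the text were the 3 most abundant tested genes of each family, the 2 largest calls of each comparison, the polyadenylated and testis genes, up to 4 abundant called genes of each further list, Slbp and Npat. Marker lists covered hepatocytes and 7 other cell types. The alternatives changed pseudocount, filter, scaling, covariates, weights and the libraries used.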

Additional observations from a re-analysis of the deposited data

Results flagged for a closer look

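Some libraries stood apart from the others of their group in histone values: the gap to the nearest library exceeded the 95% limit of Dixon's ratio in 14 of 130 groups of values checked. Chance flags about 1 in 20 such groups, and the values are not independent, since the same libraries and overlapping gene sums recur.

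MYC liver replicate 4 had an H2A sum of 882 RPKM (the others 311 to 461). In the same library Hist2h2ac was at 201 RPKM (84.6 to 118), Hist1h2ak at 129 RPKM (47.4 to 70.7), Hist1h3e at 92.7 RPKM (54.2 to 61.6), Hist1h3g at 83.2 RPKM (35.8 to 44.9) and Hist3h2bb-ps at 14.7 RPKM (3.27 to 4.96). Its DNA replication sum of 953 RPKM was the highest of the MYC livers, and it was the MYC liver with keratin reads (4.41 RPKM). Without it, 44 histone genes were called in MYC against WT livers, a count given without its share over all genes.

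MYC+Ex3 liver replicate 4 had sums of 579 RPKM for H1 (the others 357 to 416), 726 RPKM for H2A (419 to 489.7), 1123 RPKM for H2B and 636 RPKM for H3 (395 to 454). There Hist1h3c was at 76.4 RPKM (51.7 to 54.9) and Hist1h3g at 76.6 RPKM (44.3 to 51.9). Its DNA replication sum was 1055 RPKM and its keratin sum 3.95 RPKM. WT liver replicate 2 had Hist1h2ab at 8.43 RPKM (15.1 to 16.7), and 4-OHT liver replicate 3 had Hist1h3b at 4.14 RPKM (2.05 to 2.72).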

How the results depend on the processing

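The short-term comparisons kept their counts of called histone genes within 1.5 times under every alternative run, as did MYC+Ex3 tumours against 4-OHT livers. Leaving out single libraries gave 29 to 48 genes in MYC tumours against 4-OHT livers, and 0 to 3 between the tumour types. For most of these fits the share over all genes is not given, and their counts are not read as a result about histone genes. No value of a named gene changed sign among those called. Of 9540 gene values under alternatives, 189 lost and 33 gained the threshold, and 26 of 1032 list counts moved by over 1.5 times, and the cause was not tested. Scaling to reads in genes was chosen after seeing the data. Depth limits low genes: 6 genes were tested in neither set, and p-values with 3 tumours a group rest on few samples. No paired analysis was possible because the replicate numbers follow accession order and pair no animals.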
